A study of Mus musculus with 6 samples.

Results

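The HoxC cluster was followed through its 9 protein-coding genes in stem cells of the mouse hair follicle, in a Ring1a/b-/- group and a wild-type group. The members were the rows of the deposited count table whose symbols are Hoxc4, Hoxc5, Hoxc6, Hoxc8, Hoxc9, Hoxc10, Hoxc11, Hoxc12 and Hoxc13, and they made up 9 of 23377 gene symbols. RefSeq (GRCm38.p6) places them all on chromosome 15. All 9 were found, 7 held enough counts to be tested, and Hoxc11 and Hoxc12 did not. RNA-seq was compared between 2 libraries of the genotype Ring1a/b-/- (called RingKO) and 2 wild-type libraries (called WT), all from the strain C57BL/6. Each library came from 3000 cells sorted by flow cytometry and was made with SMART-seq2, a method for small samples that amplifies cDNA of polyadenylated RNA. The series title speaks of loss of activity of Polycomb repressive complex 1 (PRC1). The labels do not state the age of the mice, how and in which cells the alleles were deleted, or whether libraries of a genotype came from different animals. P-values therefore reflect the spread between libraries alone, which may be technical.

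Hox genes encode homeodomain transcription factors that give cells their position along the body axis. They lie in the clusters HoxA, HoxB, HoxC and HoxD, and the order of genes in a cluster follows the order in which they act from head to tail, so low numbers are called anterior and high numbers posterior. Genes with the same number in different clusters are paralogues. PRC1 compacts chromatin and, through its catalytic subunit Ring1a or Ring1b, places ubiquitin on histone H2A. Hox clusters are its classical targets. In mouse skin the cluster is known above all for Hoxc13, which is needed to build a normal hair shaft and nail.

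RefSeq places 2 microRNA genes within the cluster, which serve here as landmarks. Mir196a-2 lies between Hoxc9 and Hoxc10, and Mir615 lies within the span of Hoxc5. In mouse, miR-196 is known to direct cleavage of Hoxb8 mRNA. The mature sequences from RefSeq (GRCm38.p6) are shown because miR-196a-5p sits at the border between the 2 neighbours described in most detail here. Capitals mark the seed, bases 2 to 8, by which a microRNA pairs with its targets.
mmu-miR-196a-5p (Mir196a-2, HoxC, chr15:102973365-102973386, plus strand): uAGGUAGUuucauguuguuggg
mmu-miR-196b-5p (Mir196b, HoxA, chr6:52230129-52230150, minus strand): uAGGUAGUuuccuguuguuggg
mmu-miR-615-3p (Mir615, HoxC, chr15:103014969-103014990, plus strand): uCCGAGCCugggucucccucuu
miR-196a-5p and miR-196b-5p share the seed AGGUAGU, and the copy Mir196a-1 on chromosome 11 carries the same mature sequence as Mir196a-2. Mir196a-2 and Mir615 had 0 counts in all 4 libraries. Polyadenylated RNA libraries do not measure mature microRNAs, so these 0 counts say nothing of their level.

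WT replicate 2 stood apart in some genes of other skin cells, chosen after their values were seen. Col1a1, a fibroblast collagen, stood at 13.3 and 17.8 CPM (counts scaled to a common library size, with edgeR's TMM factors) in the RingKO libraries, against 14.4 and 113 CPM in the WT libraries, and Col1a2 and Col3a1 were likewise highest in WT replicate 2. Pecam1, an endothelial marker, had 2 and 1 counts in the RingKO libraries, against 0 and 35 in the WT libraries. Some other fibroblast and mural markers went the other way and were higher in WT replicate 1. Among these, Dcn stood at 593 and 430 CPM in WT replicates 1 and 2, and Acta2 at 158 and 138 CPM. HoxC values without WT replicate 2 are given with the results.

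In wild-type cells the cluster was expressed on both sides of a stretch without counts. Hoxc4, Hoxc5, Hoxc6 and Hoxc8 on the anterior side and Hoxc13 at the posterior end reached at least 1 CPM in both WT libraries, Hoxc9 did so in 1, and Hoxc10, Hoxc11 and Hoxc12 had 0 counts in both. In RingKO cells 7 of the 9 genes reached 1 CPM in both libraries. Over all 23377 gene symbols 13108 did so in RingKO and 12400 in WT. The 2 genes that met this cut-off in RingKO only were Hoxc9 and Hoxc10. Hoxc10, at the anterior edge of that stretch, had 0 WT counts, while Hoxc9, next to it, already had 8 and 2 counts in the WT libraries. Hoxc11 and Hoxc12 held at most 5 counts in a library.

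**Figure D1:**
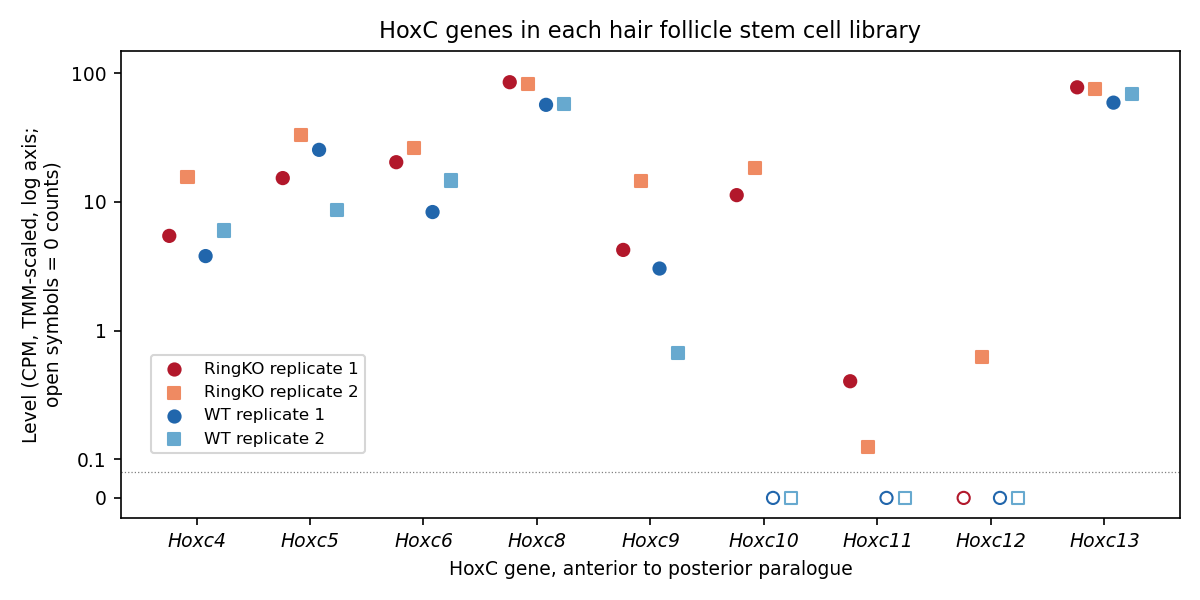
Level of each HoxC gene in each library, in CPM on a log axis, with RingKO libraries in red and orange and WT libraries in blue, ordered from anterior to posterior paralogue. Open symbols below the dotted line are 0 counts; Hoxc10 stands at 11.3 and 18.4 CPM in RingKO and at 0 counts in WT, while Hoxc8 and Hoxc13 are high in all 4 libraries.

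Hoxc10, a homeodomain factor of the posterior trunk and hindlimb level, gave the clearest difference between the genotypes. It held 56 and 148 counts (11.3 and 18.4 CPM) in the RingKO libraries, against 0 and 0 counts in the WT libraries. Both RingKO libraries were clearly above 0 and both WT libraries were empty. The WT libraries were the shallower pair, but at the lower of the RingKO levels they would have held 29.8 and 33.9 counts. With the counts of each genotype pooled over its libraries, so that the deeper RingKO replicate 2 weighs more, and a floor of 3 counts over the WT libraries, Hoxc10 was at least 29.5-fold higher in RingKO cells. The floor allows for counting error alone, as reads copied by PCR are not separate molecules. In such bulk samples more RNA per cell and more cells of a type cannot be told apart.

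Whether Hoxc10 passed depended on the test. In edgeR's quasi-likelihood test its p was 0.002 before and 0.147 after Benjamini-Hochberg adjustment over 13134 genes, so it did not pass at an adjusted p under 0.05. DESeq2 called it higher in RingKO cells (adjusted p = 5.43e-04), as did edgeR with no filter on low counts (adjusted p = 0.00501), and limma-voom did not (adjusted p = 0.208). Over its other settings the adjusted p of Hoxc10 ran up to 0.615, the value without RingKO replicate 2. The pooled bound was at least 34.6-fold without RingKO replicate 1, 21-fold without RingKO replicate 2, 15.8-fold without WT replicate 1 and 13.6-fold without WT replicate 2, where the 3 counts of the floor fall on 1 WT library.

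In edgeR's test 0 of the 7 tested HoxC genes passed, where 0.0609% of all tested genes did (8 of 13134), 0.0533% higher and 0.00761% lower in RingKO. Without adjustment 1 of the 7, Hoxc10, was higher at p under 0.05, where 8.47% of all tested genes were, and 0 of the 7 were lower, where 8.16% were. DESeq2 called 1 of the 7 members to which it gave an adjusted p higher and 0 lower, against 6.21% of 14502 genes called higher and 6.14% called lower. Limma-voom called 0 of 13134 genes and 0 members, with 1 member and 5.93% of all genes higher at an unadjusted p under 0.05. The authors' deposited table gave Hoxc10 a log2 fold change of 7.83 and an adjusted p of 5.43e-04, and it gave the 6 other members with an adjusted p values from 0.139 to 0.763. That table holds 901 genes with an adjusted p under 0.05 and a positive log2 fold change (6.21%), and it comes from the same counts, so it is no independent check.

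Hoxc11 and Hoxc12, the posterior genes between Hoxc10 and Hoxc13, were close to silent in both genotypes. Hoxc11 had 2 and 1 counts in the RingKO libraries, against 0 and 0 in the WT libraries. Hoxc12 had 0 and 5 counts in the RingKO libraries, against 0 and 0 in the WT libraries. These counts are at or near the floor, so no fold is given, and a difference was not detectable at this depth. Hoxc10 and Hoxc11 were the 2 of 9 members with 0 counts in both WT libraries and a count in both RingKO libraries, a pattern found in 3.29% of all gene symbols.

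Hotair, a long noncoding RNA transcribed between Hoxc12 and Hoxc11 and known from human cells as a partner of Polycomb proteins, also lies in the stretch without WT counts of Hox genes. It had 36 and 13 counts (7.27 and 1.618 CPM) in the RingKO libraries, against 0 and 1 count in the WT libraries. Its ratio of pooled rates was 21.2 with an exact 95% counting interval of 3.64 to 856, and it rests on 1 WT count. It was 9.11 without RingKO replicate 1, 40.5 without RingKO replicate 2 and 11.4 without WT replicate 1, and without WT replicate 2 no WT count was left. It was too low for edgeR's filter and did not pass in DESeq2 (adjusted p = 0.164). Hotair was higher in RingKO replicate 1 than in replicate 2, the opposite order to Hoxc10. The labels do not state whether counting used strand, and without strand Hotair cannot be told apart from transcription of the other strand.

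Hoxc9, which lies next to Hoxc10 and acts at the level of the thorax, was low in WT cells. It stood at 4.24 and 14.6 CPM in the RingKO libraries (21 and 117 counts), against 3.04 and 0.667 CPM in the WT libraries (8 and 2 counts). The groups did not overlap, yet RingKO replicate 1 stood only just above WT replicate 1. The log2 fold change was 2.34 ± 1.34 (SE), which did not pass (edgeR adjusted p = 0.436), and it was 1.17 without RingKO replicate 2, 3.79 without WT replicate 1, 1.616 without WT replicate 2 and 1.56 with limma-voom after cyclic loess.

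Hoxc8, a gene of the thoracic level, had the most even difference between genotypes. It stood at 85.4 and 82.7 CPM in the RingKO libraries, against 57 and 58.1 CPM in the WT libraries. Libraries of a genotype lay within a few CPM of each other and the groups were clearly apart. The mean was 1.46-fold higher in RingKO cells (84 ± 1.94 against 57.5 ± 0.784 CPM, SD, n = 2 each). The log2 fold change of 0.55 ± 0.29 (SE) did not pass (edgeR adjusted p = 0.387), and it ran from 0.51 to 0.65 over the alternatives run.

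Hoxc13, the regulator of hair shaft keratins at the posterior end of the cluster, was already strongly expressed in WT cells. It stood at 77.9 and 75.8 CPM in the RingKO libraries, against 59.2 and 68.7 CPM in the WT libraries. The groups did not overlap, but the gap between them was smaller than that between the WT libraries. The log2 fold change was 0.26 ± 0.29 (SE; edgeR adjusted p = 0.748), a 1.2-fold difference in means that did not exceed its error. The ratio of Hoxc8 counts to Hoxc13 counts, which compares libraries and not the levels of the 2 genes, was 1.1 and 1.09 in RingKO and 0.962 and 0.845 in WT libraries.

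Hoxc4, Hoxc5 and Hoxc6, anterior genes whose human counterparts are known to share an upstream exon, were expressed in all 4 libraries with wide spread. Hoxc6 stood at 20.4 and 26.4 CPM in the RingKO libraries, against 8.35 and 14.7 CPM in the WT libraries. Its groups did not overlap, and its log2 fold change of 1.02 ± 0.76 (SE) did not pass (edgeR adjusted p = 0.576). Hoxc4 stood at 5.45 and 15.7 CPM in the RingKO libraries, against 3.8 and 6.01 CPM in the WT libraries. Hoxc5 stood at 15.3 and 33.4 CPM in the RingKO libraries, against 25.4 and 8.68 CPM in the WT libraries. Both overlapped between genotypes and neither passed (edgeR adjusted p = 0.714 and 0.839). Libraries of 1 genotype differed more at Hoxc5 than the genotype means did, and its log2 fold change of 0.52 ± 0.79 (SE) turned to -0.17 without RingKO replicate 2 and to -0.073 without WT replicate 2.

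**Figure D2:**
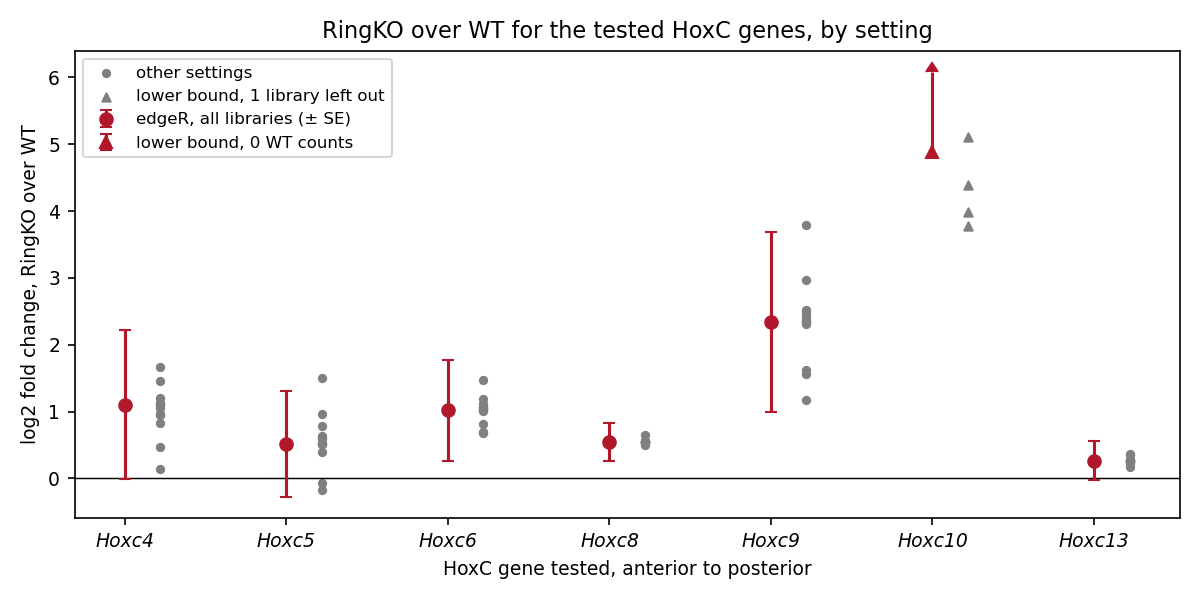
Log2 fold change of RingKO over WT for the 7 tested HoxC genes. Red points show edgeR with all libraries (± SE), grey points the same gene under each alternative setting, and triangles lower bounds for Hoxc10; Hoxc8 and Hoxc13 vary little between settings, while Hoxc5 crosses 0.

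As a list, the 7 tested members had a median log2 fold change of 1.02, against 0.034 over all 13134 genes tested. All 7 were positive, where 6871 of all 13134 tested genes were. In 5 of the 7 both RingKO libraries lay above both WT libraries. Of all tested genes 24.8% did so and 22.3% lay the other way. Hoxc10 entered through the RingKO libraries alone, since it had no WT counts. The median was 0.56 without RingKO replicate 2, 1.46 without WT replicate 2 and 0.51 with limma-voom after cyclic loess normalization, which removes a trend on abundance. Without WT replicate 2 the log2 fold changes of Hoxc4, Hoxc6, Hoxc8 and Hoxc13 were 1.46, 1.47, 0.54 and 0.36, and none passed in edgeR.

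The summed level of the 9 members was 220 and 268 CPM in the RingKO libraries, against 157 and 157 CPM in the WT libraries. The means were 244 ± 33.4 and 157 ± 0.0169 CPM (SD, n = 2 each), 1.56-fold apart, and an exact two-sided permutation test gave p = 0.333, the smallest that 6 splits of 2 against 2 can give. The WT sums matched although single members did not, with Hoxc5 at 25.4 and 8.68 CPM and Hoxc13 at 59.2 and 68.7 CPM. The small WT SD therefore does not measure how well the members repeat. The difference of mean log2 sums was 0.63 with all libraries and 0.61 without WT replicate 2. Scaled by total counts without TMM factors, the same sums were 225 and 278 CPM in RingKO and 148 and 154 CPM in WT libraries. This scaling shifted the median of all genes by 0.1 on the log2 scale toward RingKO.

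Shares within the cluster need no scaling between libraries, and they differed between the RingKO libraries. Hoxc8 and Hoxc13 together held 74.1% of HoxC counts in RingKO replicate 1 (Wilson 95% interval 71.4 to 76.6) and 59.2% (57.1 to 61.3) in RingKO replicate 2. They held 74.1% (69.7 to 78.1) and 80.9% (77 to 84.2) in the WT libraries. The other members took their largest share in RingKO replicate 2.

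Hoxc10 took 5.13% (3.97 to 6.6) and 6.88% (5.89 to 8.03) of HoxC counts in the RingKO libraries, against 0 of 413 and 0 of 470 counts in the WT libraries. The upper Wilson limits of these WT shares were 0.922% and 0.811%. Hoxc9 took 1.92% and 5.44% in the RingKO libraries, against 1.94% and 0.426% in the WT libraries. RingKO replicate 1 matched WT replicate 1 in this share. Hoxc13 took 35.3% (32.6 to 38.2) and 28.3% (26.5 to 30.3) in the RingKO libraries, against 37.8% (33.2 to 42.5) and 43.8% (39.4 to 48.3) in the WT libraries. Its share was lower in both RingKO libraries, but the intervals of the first library of each genotype overlap. These intervals cover counting error only.

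**Figure D3:**
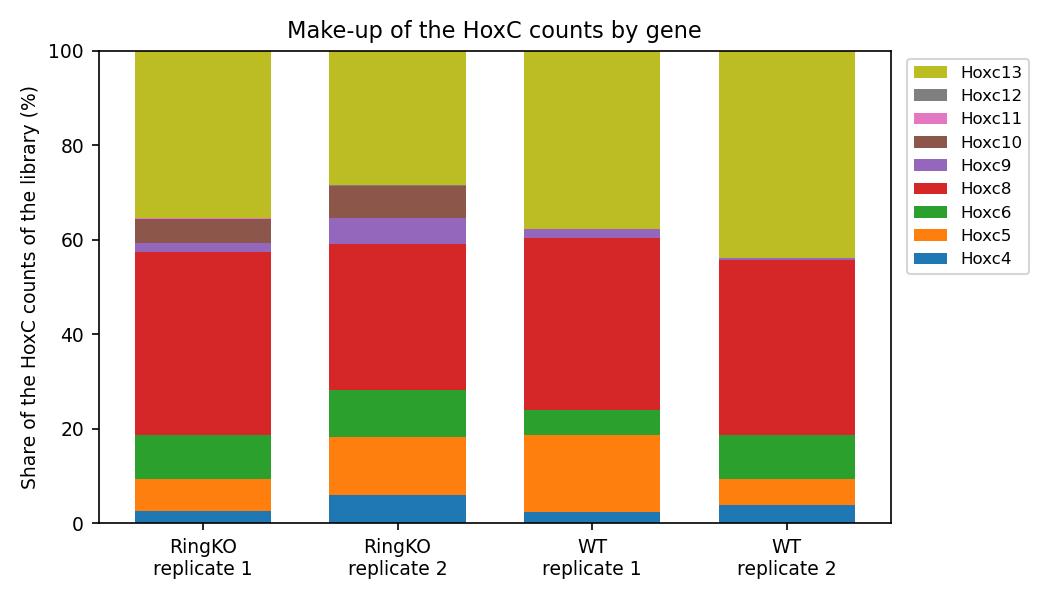
Share of all HoxC counts of a library held by each gene, in percent, for the 2 RingKO libraries (left) and the 2 WT libraries (right). Hoxc10 takes 5.13% and 6.88% in RingKO and nothing in WT, and Hoxc8 with Hoxc13 takes 59.2% in RingKO replicate 2 and at least 74.1% in the other libraries.

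Levels were compared between genes per kilobase of gene span, introns included, since transcript lengths were not used here. Intron length can therefore set the order. In CPM Hoxc13 stood above Hoxc8 in both WT libraries (59.2 and 68.7 against 57 and 58.1). Per kilobase of span Hoxc8 led in all 4 libraries, with 22.9 and 22.1 CPM per kilobase in RingKO and 15.2 and 15.5 CPM per kilobase in WT libraries. Hoxc13 was second everywhere (10.1 and 9.87 in RingKO, 7.71 and 8.95 in WT libraries) and Hoxc5 came next (4.48 and 9.75 in RingKO, 7.43 and 2.54 in WT libraries). The spread of Hoxc5 reached close to Hoxc13 in RingKO replicate 2 and WT replicate 1, so these neighbours in the order were not apart there. Hoxc10 had rank 4 in both RingKO libraries, with 2.22 and 3.61 CPM per kilobase, above Hoxc9 with 0.572 and 1.96 CPM per kilobase. In CPM Hoxc6 (20.4 and 26.4) lay above Hoxc10 (11.3 and 18.4) in both RingKO libraries. With introns the span of Hoxc6 is the longer (13.657 against 5.103 kb), so the order of Hoxc6 and Hoxc10 was not settled. Hoxc6 also lay above Hoxc5 in CPM in RingKO replicate 1 (20.4 against 15.3) and WT replicate 2 (14.7 against 8.68). Spans of no 2 members overlap in the RefSeq table, but reads of neighbouring Hox genes may still be shared where transcripts run on.

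The genes outside the cluster were looked at in the order of the RefSeq table, 5 counted genes on either side. None of the 7 that could be tested passed in edgeR. DESeq2 called 3 of these, Atp5g2 beyond Hoxc13 and Cbx5 and Hnrnpa1 beyond Hoxc4, all lower in RingKO cells, and they are named after their values were seen. Of all 14502 genes DESeq2 called 6.14% lower. Cbx5, which encodes the heterochromatin protein HP1 alpha, stood at 464 and 448 CPM in the RingKO libraries, against 614 and 567 CPM in the WT libraries. The median log2 fold change was 0.24 over the 4 tested genes beyond Hoxc13 and -0.37 over the 3 beyond Hoxc4.

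The other clusters were set beside HoxC by paralogue group, from the same 4 libraries. In group 10 all 3 paralogues were at or near 0 in WT cells. Hoxa10 stood at 37.6 and 68.5 CPM in the RingKO libraries, against 0.38 and 1.67 CPM in the WT libraries. Hoxd10 stood at 41.2 and 34.2 CPM in the RingKO libraries, against 0 counts in both WT libraries. Per kilobase of span the RingKO levels were 2.22 and 3.61 for Hoxc10, 3.89 and 7.09 for Hoxa10 and 3.8 and 3.16 for Hoxd10. In CPM Hoxd10 lay above Hoxc10 (11.3 and 18.4) in both RingKO libraries. With introns the span of Hoxd10 is the longer (10.834 against 5.103 kb), so the order of Hoxc10 and Hoxd10 was not settled.

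In group 9, Hoxa9 stood at 36.1 and 61.2 CPM in the RingKO libraries, against 11 and 17 CPM in the WT libraries. Hoxb9 stood at 11.7 and 29.9 CPM in the RingKO libraries, against 2.28 and 6.67 CPM in the WT libraries. Hoxd9 stood at 24.6 and 13.1 CPM in the RingKO libraries, against 0 counts in the WT libraries. Hoxc9 and its 3 paralogues all stood higher in both RingKO than in both WT libraries, where 24.8% of all tested genes did. DESeq2 called Hoxa9 and Hoxd9 higher (adjusted p = 0.0075 and 1.79e-04), where 6.21% of all genes were, but neither Hoxb9 nor Hoxc9 (0.0916 and 0.255). Hoxd9, without WT counts, entered through the RingKO libraries alone.

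In group 11, Hoxd11 was the gene of the 4 clusters that passed in edgeR (adjusted p = 0.0431), at 58.1 and 77.6 CPM in RingKO and 0 counts in WT libraries. Hoxa11 stood at 3.63 and 16.4 CPM in the RingKO libraries, against 0 counts in the WT libraries. Per kilobase of span Hoxc11 had 0.186 and 0.0572 CPM in the RingKO libraries, below Hoxa11 (0.981 and 4.43) and Hoxd11 (7.8 and 10.4) in each. In group 12, Hoxd12 had 6 and 1 counts in the RingKO libraries, against 0 in both WT libraries.

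In group 13 the clusters differed in the wild type itself. Hoxc13 was the member expressed in WT cells, where Hoxa13, Hoxb13 and Hoxd13 all had 0 counts. In the RingKO libraries Hoxb13 stood at 8.88 and 19.8 CPM and Hoxd13 at 41.8 and 24.5 CPM, while Hoxa13 had 0 and 2 counts. Per kilobase of span the RingKO levels were 10.1 and 9.87 for Hoxc13, 3.87 and 8.62 for Hoxb13 and 12.4 and 7.26 for Hoxd13. In CPM Hoxc13 (77.9 and 75.8) lay above Hoxd13 in both RingKO libraries. With introns the span of Hoxc13 is the longer (7.684 against 3.379 kb), so the order of Hoxc13 and Hoxd13 was not settled.

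**Figure D4:**
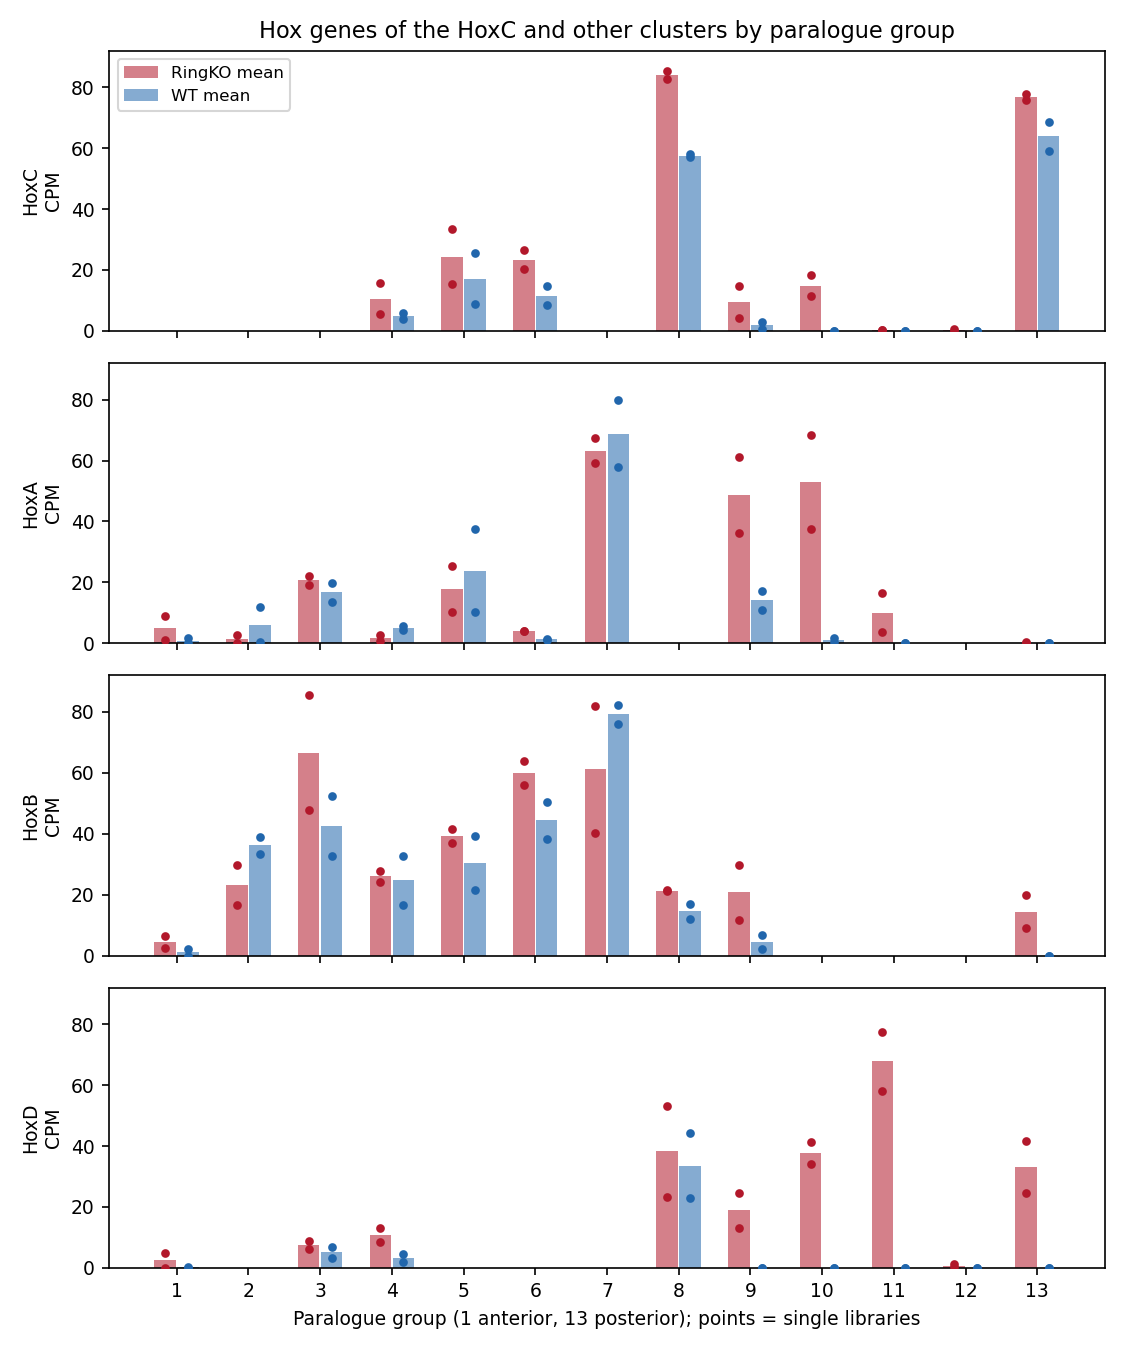
Mean CPM of RingKO (red) and WT (blue) libraries for each Hox gene by paralogue group, with points for single libraries, for HoxC and the other 3 clusters. In groups 9 to 13, RingKO bars stand without WT bars at Hoxc10, Hoxa11, Hoxb13, Hoxd9, Hoxd10, Hoxd11 and Hoxd13, while Hoxc13 has both.

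In group 8, Hoxb8 stood at 21.2 and 21.4 CPM in the RingKO libraries, against 12.2 and 17 CPM in the WT libraries. Hoxd8 stood at 53.3 and 23.2 CPM in the RingKO libraries, against 22.8 and 44.4 CPM in the WT libraries. In group 4, Hoxa4 had 2.83 and 0.871 CPM in the RingKO libraries, against 5.7 and 4.34 CPM in the WT libraries, and Hoxb4 and Hoxd4 are drawn in the plot by paralogue group. None of Hoxa4, Hoxb4, Hoxd4, Hoxa5, Hoxb5, Hoxa6, Hoxb6, Hoxb8 and Hoxd8 passed in edgeR or in DESeq2.

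By cluster, 5 of 9 HoxC genes reached 1 CPM in both WT libraries, beside 6 of 11 HoxA, 8 of 10 HoxB and 3 of 9 HoxD genes. In both RingKO libraries 7 of 9 HoxC, 8 of 11 HoxA, 10 of 10 HoxB and 7 of 9 HoxD genes did. Over all 23377 gene symbols 12400 did so in WT and 13108 in RingKO. In the shallower WT libraries 3 counts stand for 1.14 and 1 CPM. The median log2 fold change of tested genes was 1.02 for HoxC, 0.31 for HoxA, 0.49 for HoxB and 5.04 for HoxD, the last with genes at 0 in WT set to their bounds (9.46 as fitted). Hoxc10, Hoxa11, Hoxb13, Hoxd9, Hoxd10, Hoxd11 and Hoxd13 had no WT counts and entered through the RingKO libraries alone, so the filter shapes these medians, that of HoxD above all with 4 such genes of 7. They describe the lists, and a difference between clusters was not tested.

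Of 11 Hox cofactors, the Pbx, Meis and related proteins that bind DNA together with Hox proteins, 9 were tested and 0 passed in edgeR, with a median log2 fold change of 0.16. Tgif1 stood at 121 and 132 CPM in the RingKO libraries, against 127 and 119 CPM in the WT libraries. Pknox1 stood at 69.7 and 140 CPM in the RingKO libraries, against 122 and 120 CPM in the WT libraries. Meis2, chosen after its values were seen as the 1 of 10 cofactors that DESeq2 called higher (adjusted p = 2.97e-04, where 6.21% of all genes were called higher), had 153 and 130 counts in the RingKO libraries, against 1 and 4 counts in the WT libraries.

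Of 23 hair differentiation genes linked to Hoxc13, 11 were tested and 0 passed in edgeR. A marker list for the hair matrix and shaft shares genes with this one. It summed to 1177 to 1314 CPM in RingKO and 2118 to 2623 CPM in WT libraries. Most of each sum was Krt71 and Gata3, genes of the inner root sheath. Krt71 stood at 433 and 378 CPM in the RingKO libraries, against 1063 and 811 CPM in the WT libraries. The shaft keratin Krt35 stood at 20.2 and 13.6 CPM, against 76.3 and 34 CPM. The part of these markers in the values of the Hoxc13-linked list was not tested. In the Hoxc13-linked list DESeq2 called 2 higher (Foxq1 and Krt32) and 3 lower (Dlx3, Krt35 and Tgm3) in RingKO cells. That was of 12 genes to which it gave an adjusted p, where 6.21% of all genes were called higher and 6.14% lower. Of these, Foxq1, Krt32, Krt35 and Tgm3 are named after their values were seen. Dlx3, a homeobox regulator of the hair matrix, stood at 371 and 331 CPM in the RingKO libraries, against 646 and 499.6 CPM in the WT libraries. Msx2, a homeobox gene of the hair matrix, stood at 194 and 172 CPM in the RingKO libraries, against 275 and 221 CPM in the WT libraries. Foxn1, known as a target of Hoxc13 in mouse nail and hair and chosen after its values were seen, stood at 99.5 and 130 CPM in the RingKO libraries, against 83.9 and 80.4 CPM in the WT libraries.

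Of 5 limb and skin position genes, 3 were tested, 0 passed in edgeR and 2, Pitx1 and En1, were called higher by DESeq2, where 6.21% of all genes were. En1, named after its values were seen, had 26 and 34 counts in the RingKO libraries, against 0 and 0 in the WT libraries. It entered through the RingKO libraries alone. Pitx1, a hindlimb identity factor, stood at 10.9 and 21.7 CPM in the RingKO libraries, against 0.38 and 1 CPM in the WT libraries. Tbx15 stood at 11.7 and 21.9 CPM in the RingKO libraries, against 0.38 and 32.7 CPM in the WT libraries.

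Likeness was measured from Hoxc8, the member of highest mean CPM over the 4 libraries, although Hoxc13 had more CPM than Hoxc8 in both WT libraries. The gene nearest to Hoxc8 was Ttpal, followed by Pgd, Smarca2, Slc7a6os and Fbxo5. Their root mean square differences from Hoxc8 in log2(CPM + 1) were 0.0703 to 0.0868. Hoxc13 was the 30th nearest of all tested genes, at 0.152, and the nearest Hox gene of another cluster was Hoxa7, at 0.383.

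The HoxC cluster is also active in dermis, so markers of other cells were set beside it. The libraries held 4844381 and 7740945 counts in RingKO and 2785843 and 3056593 counts in WT, of which 1092, 2150, 413 and 470 in that order were HoxC counts. All 12 follicle stem and outer root sheath markers were detected, with summed levels of 2338 to 2689 CPM in RingKO and 2537 to 2694 CPM in WT libraries. All 14 dermal fibroblast and dermal papilla markers were detected, at 319 to 410 CPM in RingKO and 661 to 779 CPM in WT libraries, while Twist2, Sox2, Corin and Crabp1 had 0 counts in both WT libraries. That sum is mostly Dcn, at 272 and 159 CPM in the RingKO libraries and 593 and 430 CPM in the WT libraries. Of the 8 genes of the list that were tested, 4 stood higher and 1 lower in both RingKO libraries, where 24.8% and 22.3% of all tested genes did. Crabp1, among the 4, had no WT counts and entered through the RingKO libraries alone. Leukocyte markers, 7 of 8 detected, summed to 240 to 464 CPM in RingKO and 88.1 to 105 CPM in WT libraries, with Cd207 at 0 in both genotypes and Cd3e at 0 in RingKO. Melanocyte markers summed to 133 to 187 CPM in RingKO and 194 to 197 CPM in WT libraries. Endothelial and mural markers summed to 10.5 to 47.2 CPM in RingKO and 163 to 175 CPM in WT libraries. This last sum was mostly Acta2, at 9.89 and 46.7 CPM in the RingKO libraries and 158 and 138 CPM in the WT libraries. The endothelial genes Pecam1 and Cdh5 had 0 counts in WT replicate 1 and 35 and 27 counts in WT replicate 2. The part of these lists in the HoxC values was not tested. The targeted genes Ring1, which encodes Ring1a, and Rnf2, which encodes Ring1b, stood at 15.5 to 18.4 and 151 to 153 CPM in RingKO, against 29.4 to 31.9 and 87.8 to 144 CPM in WT libraries, and since the deleted exons are not given, they do not check the labels.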

How the data were processed

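The authors deposited whole-number counts per gene symbol for 4 RNA libraries, with no normalization. The submitters' processing notes name build mm9, the counter HTSeq 0.7.2, the aligners Bowtie 1.2.2 and TopHat2 2.1.1, and DESeq2. Their settings, annotation and use of strand are not stated there. The authors' deposited comparison table gives mean normalized signal, a log2 fold change of RingKO over WT, and p-values. Ring1b peak lists of the series were not analysed here, since their mm9 positions could not be tied to genes with the GRCm38.p6 tables at hand.

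The main test was the robust quasi-likelihood fit of edgeR 4.0.16 in R 4.3.3, with filterByExpr, TMM factors and genotype as the term, adjusted by Benjamini-Hochberg over all genes tested, with a threshold of 0.05. DESeq2 1.42.0 and limma-voom (limma 3.58.1) were alternatives. An SE is the absolute log2 fold change divided by the root of edgeR's F. Libraries of a genotype differed by more than sampling noise (chi-square per degree of freedom 25 in RingKO and 15 in WT). The tests were tried on simulated data. RefSeq tables gave gene order, spans and microRNA sequences.

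The members and lists were chosen with earlier results of these data known. From the lists of cofactors, hair differentiation genes and position genes the text names up to 4 genes that passed or else the 2 of highest mean CPM. Others from these lists are said to be chosen later. Genes of the marker lists are named outside this rule, with their values seen. A gene with 0 counts in a group got a bound against 3 counts over the group.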

Additional observations from a re-analysis of the deposited data

How the results depend on the processing

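Over 13 alternative settings, 86 of 91 values of the 7 tested members kept their direction and their side of the threshold, 3 came past it and 2 turned. The 3 were all Hoxc10 (DESeq2, no low-count filter, replicate block), and the 2 were Hoxc5, at -0.17 without RingKO replicate 2 and -0.073 without WT replicate 2 in a range of -0.17 to 1.5 with a library left out. The count of members called was 0 in edgeR and 1 in each of DESeq2, edgeR with no low-count filter and edgeR with the replicate block (adjusted p of Hoxc10 0.0371). Over all genes edgeR called 8, DESeq2 1792, limma-voom 0 (1956 at an unadjusted p under 0.05) and with cyclic loess 0 (1665), edgeR with no filter 802, with at least 1 CPM in 2 libraries 1, and with the replicate block 416. Leaving out 1 library gave 0 to 60 genes, with the lone library of a genotype assumed to vary like the others (0 without RingKO replicate 2, 1098 unadjusted; 1 without RingKO replicate 1; 32 and 60 without WT replicates 1 and 2). The members' median log2 fold change, 1.02, was 0.51 with cyclic loess and ran from 0.56 to 1.46 with a library left out, and the log2 ratio of their sum, 0.63, ran from 0.48 to 0.77. The replicate numbers are only a shared number: deviations of same-numbered libraries correlated at -0.14 across genes, and the crossed pairing, a setting chosen after seeing the data, gave 8 genes and 0 members. The alternatives for Ring1b peaks were not run. The cause of these differences was not tested. At this depth Hoxc11, Hoxc12 and Hotair were too low to be tested in edgeR. Ratios of Hotair without a library, also chosen after seeing the data, ran from 9.11 to 40.5.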
